A study of Xiphophorus maculatus with 24 samples.

Results

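Skin gene expression was compared between the day and the night side of the younger of 2 collections of *X. maculatus* Jp 163 A males, platyfish of an inbred line. The libraries were chosen by the collection year and the clock time in the sample labels. The 4 libraries of 2PM and 8PM form the day side and the 4 libraries of 2AM and 8AM form the night side, 8 of the 24 libraries of the series. The fish were 12 months old (12-month collection) and untreated, with 2 libraries (A and B, 1 fish each) at each clock time. They were kept on 13 h of light and 11 h of dark, and were fed flakes in the morning and brine shrimp in the afternoon while they adapted. The clock times correspond to Zt 6.5 (2PM), 12.5 (8PM), 18.5 (2AM) and 0.5 (8AM), where Zt counts hours from lights on. 8PM thus falls shortly before lights off and 8AM shortly after lights on, so the night side holds 1 dark and 1 early light time point. Light, clock time and feeding time cannot be told apart in this design. The 8 libraries of the earlier collection at the same clock times, from fish of 24 months with letters C and D (24-month collection), were used for comparison only.

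The vertebrate circadian clock is a transcriptional feedback loop. Clock or Npas2 pairs with Arntl (Bmal) on E-box elements and drives the *per*, *cry*, *ciart* and *nr1d* (Rev-erb) genes, whose products repress that pair or the *arntl* and *clock* genes themselves. Ror proteins act on the *arntl* genes against the Rev-erbs, and Dbp, Tef and Hlf compete with Nfil3 on D-box elements to pass the rhythm to other genes. In fish, clocks outside the brain respond to light directly, and some *per* and *cry* genes as well as photolyases, which repair ultraviolet damage with visible light, are induced by it in other species such as zebrafish.

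CPM, the counts of a gene scaled to a fixed library total, are used for levels, and differences are given as log2 fold change, day side minus night side, with the standard error (SE) and the adjusted p-value of edgeR's quasi-likelihood test over all genes. A gene is called where its adjusted p is under 0.05. The 8 libraries hold between 25927255 and 29385115 counts. Library 8AM A has a count on 22316 genes, against 21094 to 21499 in the other 7 libraries. The epidermal marker *epcam* was between 773 and 1380 CPM and the dermal collagen gene *col1a2* between 2830 and 6450 CPM. Summed marker levels overlapped between the sides for muscle (5160 to 6750 CPM by day, 4380 to 8950 by night). All 14 muscle markers had a log2 fold change below 0 (median -0.25), but 0 were called. The summed levels of blood markers did not overlap, with 1220 to 1420 CPM on the day side and 947 to 1210 on the night side. Of the 12 blood markers 4 were called higher by day, and 1 by night, which were 2 and 0 without 8PM B. Liver markers, at a low level, did not overlap either, with 12.2 to 17.7 CPM by day and 19.3 to 36.7 by night. In whole skin, fewer cells of a type and less RNA per cell cannot be told apart.

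The sides differed in 4848 of 18260 genes tested (26.5%). By day 2857 genes (15.6%) were higher and by night 1991 (10.9%), with a median absolute log2 fold change of 0.62. The change exceeded 1 log2 unit in 942 genes, 589 higher by day and 353 higher by night. The levels of the sides did not overlap in 5517 genes (30.2%). The balance of directions depends on the scaling: with total counts in place of TMM, 2310 genes were higher by day and 2516 by night, so that the day side held 47.9% of calls in place of 58.9%. With 1 library left out, which also lowers the power of the test, the count was between 2927 (without 8PM B) and 5122 (without 2PM B). The first principal component took up 53.8% of the variance and set the sides apart, with 2PM (5.77 and 19.7) between the night libraries (-36.1 to -27.8) and 8PM (47.8 and 56.3).

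Most genes of the day side were highest at 8PM. The mean CPM was highest at 8PM for 2651 of the 2857 genes and at 2PM for 206. The 1991 genes of the night side were highest at 2AM in 1297 cases and at 8AM in 694.

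The clock activators were the group with the largest median change on the day side, 2.07 log2 units against -0.02 over all genes tested. Of 10 members 6 (60%, against 15.6% of all genes) were called higher by day and 0 by night. *arntl1* (Bmal1) was at 33.7 and 34.4 CPM at 2PM, 47.7 and 51.5 at 8PM, 4.11 and 4.49 at 2AM, and 7.34 and 3.27 at 8AM. Every day library was thus several-fold above every night library, and *arntl1* was 9-fold higher by day (log2 fold change 3.17, SE 0.24, adjusted p = 0.000423). *clocka*, a partner of the Arntl proteins, was between 48.7 and 107 CPM by day and between 3.09 and 7.81 by night (log2 fold change 3.84, SE 0.32, adjusted p = 0.000504). Its second copy *clockb* showed a smaller change of 1.77 log2 units (SE 0.10), and *npas2*, which can replace Clock, one of 2.38 (SE 0.22). *arntl2-Ohnolog1* was 2.50 log2 units higher by day (SE 0.15), from 77 CPM by day to 14 by night.

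The other copy of *arntl2* did not follow. *arntl2-Ohnolog2* was at 66.3 and 63 CPM at 2PM and 227 and 251 at 8PM, against 160 and 185 at 2AM and 119 and 129 at 8AM. Its highest and lowest libraries lay on the same side, and the side difference was 0.06 log2 units (SE 0.42). *rorca* crossed the sides as well, with 37.9 and 46.7 CPM at 2PM, 15.6 and 16.9 at 8PM, 5.57 and 5.62 at 2AM and 26.2 and 24.7 at 8AM. *rorcb*, of the same receptor family, was highest at 2PM (322 and 328 CPM), lowest at 2AM (9.14 and 12.6), and called higher by day (log2 fold change 2.48, SE 0.73, adjusted p = 0.0329). That call was lost without any of the 2PM or 2AM libraries. Reads shared between such gene copies may have been split by the counting, since no source used here gives the treatment of multi-mapping reads.

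**Figure D1:**
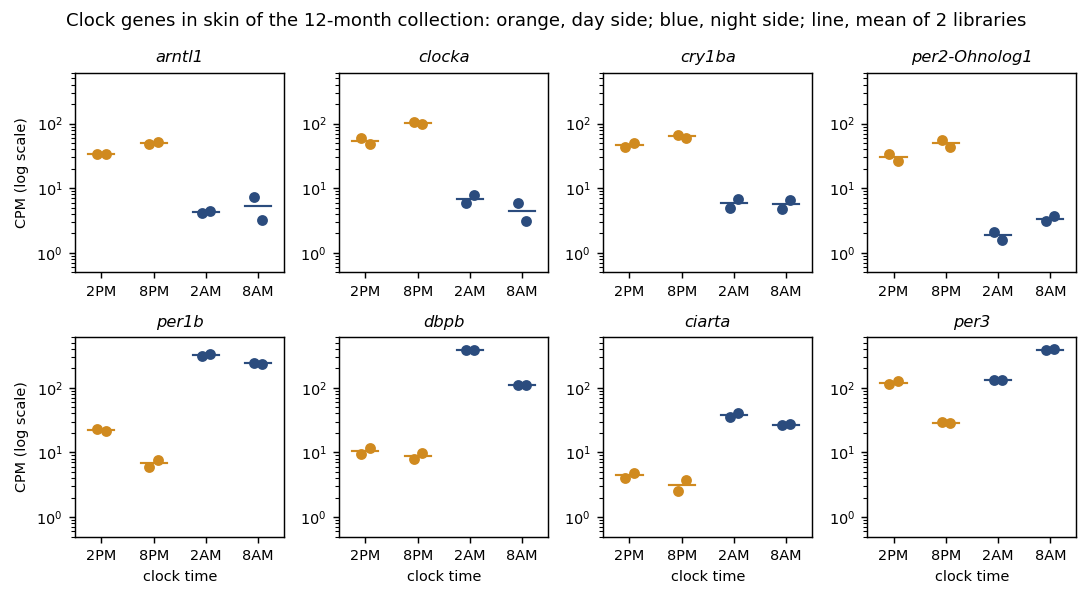
CPM (log scale) of 8 clock genes in each library of the 12-month collection by clock time, with orange points for the day side, blue points for the night side and a line at the mean of the 2 libraries. *arntl1*, *clocka*, *cry1ba* and *per2-Ohnolog1* are higher in every day library, *per1b*, *dbpb* and *ciarta* in every night library, and *per3* is between 114 and 133 CPM at both 2PM and 2AM.

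Repressors of the clock were found on both sides. Of 20 members 9 were called higher by night (45%, against 10.9% of all genes) and 7 were not called. The 4 called higher by day were 20%, against 15.6% of all genes. *per1b*, a Period gene, was at 22.7 and 21.6 CPM at 2PM, 5.95 and 7.56 at 8PM, 310 and 330 at 2AM and 242 and 233 at 8AM. The side difference was 18.5-fold (log2 fold change -4.21, SE 0.45, adjusted p = 0.000876), and the level also fell by 1.77 log2 units from 2PM to 8PM (adjusted p = 0.000255). *ciarta*, whose product binds and represses the Clock-Bmal pair, was between 2.51 and 4.75 CPM by day and between 26.6 and 40.5 by night. Its relative *CIART* changed by -2.42 log2 units (SE 0.26), from 2.07 CPM by day to 11.4 by night. The Rev-erb gene *nr1d1* was at 2.8 to 4.86 CPM by day, 56.5 and 59.4 at 2AM and 16.3 and 19 at 8AM (log2 fold change -3.22, SE 0.45, adjusted p = 0.00188). *nr1d4a* was high at 2AM only, with 190 and 198 CPM against 27.3 and 23.9 at 8AM and 13.6 to 19.7 by day. Its day levels lay under every night library, and the side difference was called (adjusted p = 0.0171), though not with the description letter as a block (adjusted p = 0.0661).

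Others of the repressors were called higher by day. *cry1ba*, a cryptochrome, was at 44 and 49.5 CPM at 2PM, 66.4 and 59.9 at 8PM, 4.86 and 6.87 at 2AM and 4.8 and 6.57 at 8AM. With *clockb*, *cry1ba* had the smallest p-values of the named genes (log2 fold change 3.29, SE 0.18, adjusted p = 6.88e-05). *per2-Ohnolog1* was at 33.6 and 26.5 CPM at 2PM, 54.8 and 43.9 at 8PM, 2.14 and 1.59 at 2AM and 3.1 and 3.69 at 8AM. It was 15.4-fold higher by day (log2 fold change 3.95, SE 0.31, adjusted p = 0.000423). *per2-Ohnolog2* was between 70.2 and 82.2 CPM by day, while its night libraries fell into 6.72 and 9.21 at 2AM and 29.6 and 35.4 at 8AM. The Rev-erb gene *nr1d2b* was instead higher by night, at 106 CPM by day and 156 by night (log2 fold change -0.51, adjusted p = 0.0402). It was called under 9 of 15 alternatives. The call was lost with the replicate letter as a block (adjusted p = 0.0584), with no filter, and without any of the 8AM or 8PM libraries. *NOCT*, counted here with the repressors, encodes the deadenylase-related protein Nocturnin. It was higher at 8PM (12.2 and 9.76 CPM) than in any other library (1.74 to 3.72). Its call (adjusted p = 0.0199) was lost with the letter of the sample descriptions as a block (adjusted p = 0.0589), and without 8AM B, 8PM A or 8PM B.

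The side contrast counts differences between the clock times of a side as spread, and some clock genes differed strongly within a side. *per3*, at position 22995275 to 23014650 of chromosome 20 in the RefSeq annotation of genome version 5.0, was at 114 and 125 CPM at 2PM, 29.2 and 28.4 at 8PM, 133 and 130 at 2AM and 381 and 391 at 8AM. The sides did not overlap and the mean was 74.3 CPM by day and 259 by night, but the spread within each side left it uncalled (log2 fold change -1.75, SE 0.60, adjusted p = 0.0575). With a mean fitted for each clock time it was called, as with the description letter as a block (adjusted p = 0.0411). *nr1d4b* spanned 9.43 to 111 CPM by day and 27.1 to 308 by night, and *cry1ab-Ohnolog1* 9.03 to 36.7 and 30.9 to 84.4. *BHLHE40*, copy ENSXMAG00000002248, a repressor of E-box genes, was at 279 and 285 CPM at 2PM and 310 and 336 at 8AM but at 20.8 and 27.3 at 8PM, and was not called between the sides (log2 fold change -0.24, SE 0.93).

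Of the 8 D-box factors 3 were called higher by day (37.5%, against 15.6% of all genes) and 2 by night (25%, against 10.9%). The activator *dbpb* showed the largest change towards the night side of all named genes, with 9.43 and 11.5 CPM at 2PM, 7.78 and 9.72 at 8PM, 384 and 386 at 2AM and 109 and 109 at 8AM (log2 fold change -4.63, SE 0.48, adjusted p = 0.000869). *tefb*, of the same family, was between 44.6 and 107 CPM by day and between 545 and 592 by night. *hlfa*, the third activator, moved the other way, with 402 CPM by day and 186 by night on average and no overlap (log2 fold change 1.15, SE 0.19, adjusted p = 0.00356). The repressor *nfil3-5* was at 90 and 92.3 CPM at 2PM, 24.6 and 28.2 at 8PM, 2 and 2.19 at 2AM and 8.05 and 7.77 at 8AM, so that its day libraries were all above its night libraries (log2 fold change 3.61, SE 0.64, adjusted p = 0.00423).

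The photolyase that repairs cyclobutane dimers, *cpd photolyase*, was at 104 and 102 CPM at 2PM, 58.9 and 64.7 at 8PM and 25.1 to 30.5 by night (log2 fold change 1.59, SE 0.21, adjusted p = 0.0015). *cry5* (16.4 CPM by day, 14.7 by night) and *cry-dash* (15.9 and 12.8) were not called. In nucleotide excision repair, *xpc*, which recognises damage and lies on chromosome 1 at 9022289 to 9033641, was at 49.5 and 44.7 CPM at 2PM, 31.4 and 30.5 at 8PM and 9.85 to 12.1 by night. It was called (log2 fold change 1.88, SE 0.18, adjusted p = 0.000835), as were the TFIIH subunits *gtf2h1* (1.26) and *ercc2* (0.93). Of the 20 members of the repair list 5 were called, all higher by day, and 6 had a log2 fold change below 0. The share called was 25%, against 26.5% of all genes called and 15.6% called higher by day.

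Outside the clock, many genes for making, folding, moving and degrading protein were called higher by day. Of 46 ribosome biogenesis genes 31 (67.4%) were called higher by day and 3 (6.52%) by night, with a median log2 fold change of 0.54. The shares of all genes, for this list and those below, were 15.6% by day and 10.9% by night. *noc2l*, a nucleolar assembly factor, was at 46 and 34 CPM at 2PM, 66 and 57.2 at 8PM and 13.2 to 18.3 by night (log2 fold change 1.74, SE 0.18, adjusted p = 0.000875), and *nop58*, of the box C/D particles that modify ribosomal RNA, changed by 1.16. *tsr3* went the other way (14.6 CPM by day, 28.1 by night, adjusted p = 0.00234). The genes of the finished cytosolic ribosome were not called: of 64 cytosolic ribosomal proteins 0 passed the adjusted threshold of edgeR, 0 had an unadjusted p under 0.05 and 0 were called by DESeq2, with a median of -0.02 and summed levels of 69200 to 76200 CPM by day and 74200 to 78900 by night. The mitochondrial ribosome lay between them, with 20 of 56 members (35.7%) called higher by day, 1 (1.79%) by night and a median of 0.23. Without library 8PM B, 7 members were called higher by day.

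Aminoacyl-tRNA synthetases, which load tRNAs with amino acids, were called higher by day in 17 of 29 cases (58.6%) and by night in 1 (3.45%). Their median was 0.48. *mars*, the methionyl-tRNA synthetase on chromosome 20 at 12884996 to 12901019, was at 33 and 16.9 CPM at 2PM, 85.2 and 65.7 at 8PM, 8.14 and 5.32 at 2AM and 3.89 and 4.65 at 8AM. The sides did not overlap, and the fitted change was 9.33-fold (log2 fold change 3.22, SE 0.47, adjusted p = 0.00215). *tars*, for threonine, rose from between 49.7 and 68.7 CPM by night to between 90.4 and 218 by day (log2 fold change 1.53, SE 0.24, adjusted p = 0.00274). Of 42 translation initiation factors, a list chosen after values were seen, 15 (35.7%) were called higher by day and 2 (4.76%) by night. *EIF4E1C*, a cap-binding protein of fish, was at 21.4 and 14.6 CPM at 2PM, 49.4 and 39.7 at 8PM and 3.44 to 5.82 by night (log2 fold change 2.72, SE 0.36, adjusted p = 0.00155).

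The largest rise by day among all named genes was in serine synthesis. *psat1*, the phosphoserine aminotransferase on chromosome 12 at 9638422 to 9644602, was at 11.3 and 5.29 CPM at 2PM, 55.1 and 40.1 at 8PM, 3.29 and 1.89 at 2AM and 0.908 and 0.959 at 8AM. The sides did not overlap, but most of the difference stood at 8PM, which was 2.45 log2 units above 2PM (adjusted p = 0.00409). Over both times the log2 fold change was 4.01 (SE 0.75, adjusted p = 0.00514). The mitochondrial folate enzymes *mthfd1l* (30.5 CPM by day, 5.55 by night) and *mthfd2* (57.7 and 15) changed by 2.50 and 1.98 log2 units. In the whole serine, glycine and one-carbon list, chosen after values were seen, 10 of 23 members (43.5%) were called higher by day. By night 1 was called higher (4.35%).

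**Figure D2:**
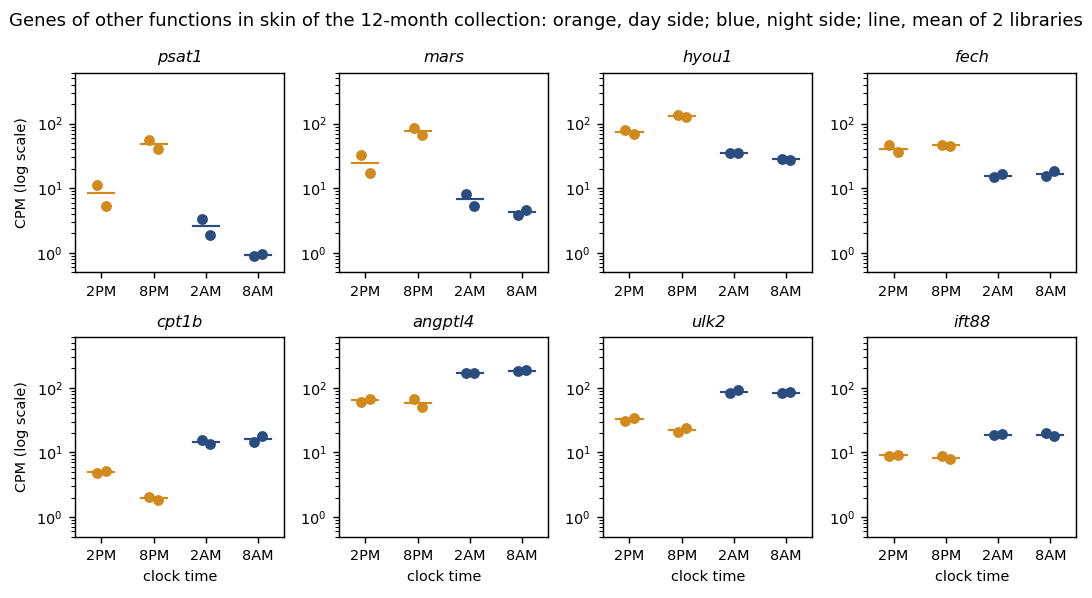
CPM (log scale) of 8 genes outside the clock in each library of the 12-month collection, with orange points for the day side, blue points for the night side and a line at the mean of the 2 libraries. *psat1*, *mars* and *hyou1* are highest at 8PM and lowest at 8AM, *fech* is near the same level at both day times, and *cpt1b*, *angptl4*, *ulk2* and *ift88* are higher in every night library.

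Many protein folding genes were called higher by day. Of 65 heat shock proteins and chaperones 37 (56.9%) were called higher by day and 2 (3.08%) by night, with a median of 0.48. Of 32 genes of the unfolded protein response of the endoplasmic reticulum (ER) 18 (56.2%) were called higher by day. By night 0 were called, and the median was 0.47. *hyou1*, an ER chaperone on chromosome 11 at 32307869 to 32320464, was at 80.2 and 70.1 CPM at 2PM, 138 and 128 at 8PM, 35.6 and 35.3 at 2AM and 28.8 and 27.1 at 8AM (log2 fold change 1.76, SE 0.21, adjusted p = 0.00111). The ER stress sensor *atf6* changed less, from between 33.9 and 38.9 CPM by night to between 51.7 and 55.8 by day (log2 fold change 0.64, SE 0.08, adjusted p = 0.0011). The member of the chaperone list with the smallest p-value, *hspbap1*, was higher by night (3.32 CPM by day, 11.2 by night); it is named for binding a small heat shock protein and is not a chaperone itself. Without 8PM B, 10 of the genes of the unfolded protein response were called.

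Many genes of the secretory route were called on the same side. The lists of this route were chosen after values were seen. Of 43 genes of ER translocation and the COPI and COPII vesicle coats 28 were called higher by day (65.1%). By night 0 were called, and the median was 0.51. Of 32 genes of N-glycan assembly 20 were called higher by day (62.5%) and 2 by night (6.25%), with a median of 0.74. *tram1*, at the translocation channel, was at 58.4 and 59.1 CPM at 2PM, 84.6 and 67 at 8PM and 31.7 to 35.3 by night (log2 fold change 1.08, SE 0.12, adjusted p = 0.000876). *dpagt1*, which starts the glycan on its lipid carrier, was between 29.2 and 39.5 CPM by day and between 15.1 and 16.1 by night (log2 fold change 1.09, SE 0.11, adjusted p = 0.000853). *sec24d*, a COPII cargo adaptor, changed by 1.44 and *lman1*, a cargo receptor, by 1.16.

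The proteasome, which degrades ubiquitin-tagged protein, had 29 of 47 members (61.7%) called higher by day and 1 (2.13%) by night, with a median of 0.61. *usp14*, a deubiquitinase bound to it, was at 35.4 and 30.6 CPM at 2PM, 64 and 59 at 8PM, 16.6 and 16 at 2AM and 12.3 and 11.5 at 8AM (log2 fold change 1.78, SE 0.24, adjusted p = 0.00157). The count of the proteasome by day was 15 without 8AM A and 11 without 8PM B, in fits that also have less power. Counts of lists were not taken without other libraries. Its summed level was 2570 and 2460 CPM at 2PM, 3560 in each 8PM library, 2510 and 2340 at 2AM and 2020 and 1920 at 8AM, so that 2PM and 2AM overlapped.

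Of 78 splicing factors 47 (60.3%) were called higher by day and 2 (2.56%) by night, with a median of 0.46. Without 8PM B 29 were called higher by day. *sf3b4*, a subunit that helps to recognise the branch site, was at 33.1 and 27.7 CPM at 2PM, 55 and 55.6 at 8PM and 10.7 to 16.6 by night (log2 fold change 1.66, SE 0.23, adjusted p = 0.00172). *khsrp*, an RNA-binding protein on chromosome 5 at 21807995 to 21818797, was between 33.1 and 85.4 CPM by day and between 6.57 and 12.2 by night (log2 fold change 2.57, SE 0.30, adjusted p = 0.0011). The lists of nuclear pore and of importin and exportin genes were chosen after values were seen. Of 19 nuclear pore proteins and pore-associated genes 16 (84.2%) were called higher by day and 1 (5.26%) by night, with a median of 0.74. Of 21 importins and exportins 14 (66.7%) were called higher by day and 2 (9.52%) by night. *rangap1b*, which acts on Ran at the pore, was 1.71 log2 units higher by day (SE 0.23), and *tnpo3*, an importer of splicing factors, 1.10 (SE 0.11). Of the replication and mitosis genes 11.2% were called, against 26.5% of all genes, with 7 of 89 higher by day (4 without 8PM B), 3 by night and a median of 0.04, although *pcna* (83 CPM by day, 47 by night) was among the 7.

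**Figure D3:**
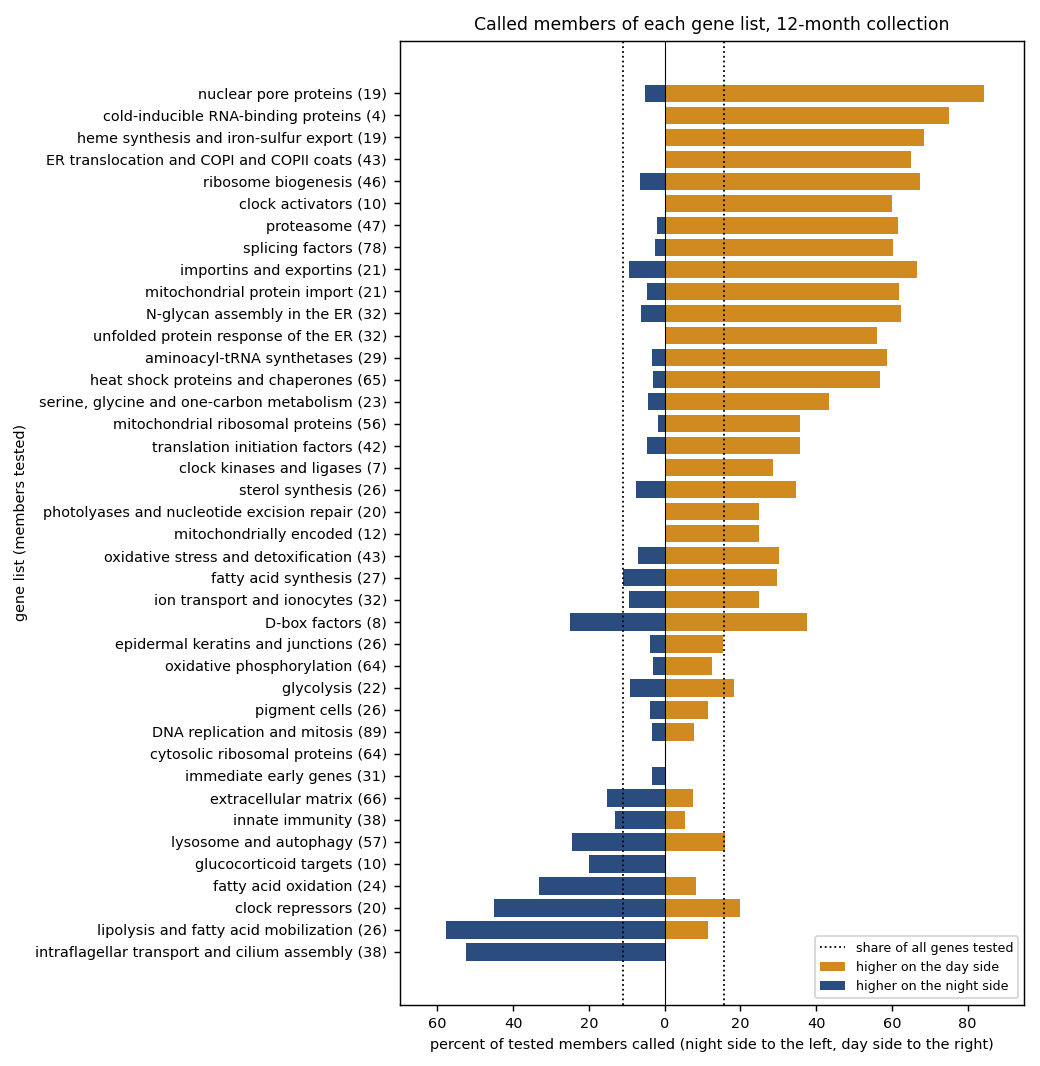
Percent of the tested members of each gene list (number tested in brackets) called higher on the day side (orange, to the right) or on the night side (blue, to the left) in the 12-month collection, with dotted lines at the shares of all genes tested, 15.6% by day and 10.9% by night. Nuclear pore, heme, secretory and ribosome biogenesis lists reach far to the right, lipolysis and intraflagellar transport to the left, and cytosolic ribosomal proteins have no called member.

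Mitochondrial genes differed by function. Of 21 genes of mitochondrial protein import, a list chosen after values were seen, 13 were called higher by day (61.9%, against 15.6% of all genes). By night 1 was called higher, and the median was 0.70. *hspe1*, a matrix chaperonin, was at 32.1 CPM by day and 13.3 by night. *ATAD3A*, an inner membrane ATPase, was between 17.6 and 68.4 CPM by day and between 5.86 and 7.5 by night (log2 fold change 2.62, SE 0.36, adjusted p = 0.00186). Of 64 subunits of oxidative phosphorylation 8 were called higher by day (12.5%, against 15.6% of all genes) and 2 by night (3.12%, against 10.9%). The median was 0.06, and without 8PM B the counts were 3 and 0. Of the 12 genes of the mitochondrial genome 3 were called higher by day (25%) and 0 without 8PM B. Their changes were small, such as 0.37 log2 units in *ND1* (SE 0.09, adjusted p = 0.0179).

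Many genes of heme synthesis and iron handling were called higher by day. In a list chosen after values were seen, 13 of 19 genes (68.4%, against 15.6% of all genes) were called higher by day. By night 0 were called, and the median was 0.49. *fech*, the last enzyme of heme synthesis, on chromosome 8 at 2650149 to 2673685, was at 45.8 and 36.2 CPM at 2PM, 47.3 and 44.7 at 8PM and 14.8 to 18.2 by night (log2 fold change 1.47, SE 0.12, adjusted p = 0.000456). *hmbsa*, an earlier enzyme, changed by 1.77 log2 units (SE 0.21), and *blvra*, which acts on a product of heme breakdown, by 1.76 (SE 0.15). The transferrin receptor *tfr1a* was between 133 and 296 CPM by day and between 58.2 and 77.1 by night. Of the 12 blood markers 9 had a log2 fold change above 0 and 3 below. *gata1a*, an erythroid factor, was at 40.3, 9.2, 28.7 and 26.7 CPM in 2PM A, 2PM B, 8PM A and 8PM B and at 5.86 to 12.1 by night (log2 fold change 1.75, SE 0.40, adjusted p = 0.0115). *hbba2*, a globin, was at 38.1, 7.51, 35.6 and 22.6 CPM against 7.03 to 15.6. In 2PM B *gata1a* and *hbba2* were within the range of the night libraries, but the summed blood markers were at 1420 CPM, the highest of all libraries. There *fech* was at 36.2 and *tfr1a* at 133 CPM, each the lowest of the day libraries. The part of blood cells in the heme list was not tested.

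Genes of lipid synthesis were called more often by day, with night shares near or below that of all genes. *srebf1*, a regulator of sterol and fatty acid synthesis, was at 83.5 and 90.6 CPM at 2PM, 137 and 125 at 8PM and 41.3 to 46.1 by night (log2 fold change 1.36, SE 0.15, adjusted p = 0.000875). Of 26 genes of the sterol list 9 were called higher by day (34.6%) and 2 by night (7.69%), and of 27 of fatty acid synthesis 8 (29.6%) and 3 (11.1%). Of all genes tested, 15.6% were called higher by day and 10.9% by night. Without 8PM B the sterol list had 5 by day. *fdft1*, which makes squalene, on chromosome 15 at 11863371 to 11870618, was higher by night, with 27.9 and 28.5 CPM at 2PM, 10.5 and 12.9 at 8PM and 58.5 to 73.4 by night (log2 fold change -1.66, SE 0.31, adjusted p = 0.00554). *acacb*, whose product limits the entry of fatty acids into mitochondria, was also higher by night (57.2 CPM by day, 118 by night, adjusted p = 0.00157), while the elongase *elovl6* was higher by day (16.9 and 6.5, adjusted p = 0.00172).

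Genes for the release and oxidation of fatty acids were called mostly on the night side. Of 24 genes of fatty acid oxidation 8 were called higher by night and 2 by day (33.3% against 10.9% of all genes), with a median of -0.21. *cpt1b*, a carnitine palmitoyltransferase that admits fatty acids to mitochondria, was at 4.76 and 5.1 CPM at 2PM, 2.04 and 1.85 at 8PM, 15.3 and 13.5 at 2AM and 14.6 and 17.7 at 8AM (log2 fold change -2.10, SE 0.33, adjusted p = 0.00263). *cpt1ab*, of the same family, was between 93.3 and 127 CPM by day and between 220 and 252 by night, and the thiolase *acaa2* between 29.2 and 33.9 and between 58.3 and 66.9 (log2 fold change -0.94, SE 0.08, adjusted p = 0.000606). In the list of lipolysis and fatty acid mobilization, chosen after values were seen, 15 of 26 genes (57.7%) were called higher by night. By day 3 were called higher (11.5%), and the median was -0.85. *angptl4*, a secreted inhibitor of lipoprotein lipase on chromosome 6 at 2086606 to 2092726, was at 60.8 and 67.8 CPM at 2PM, 66.1 and 50.1 at 8PM, 169 in each 2AM library and 183 and 186 at 8AM. Its levels within a side were close, and the sides differed by -1.48 log2 units (SE 0.11, adjusted p = 0.000423). *mlycd*, which removes the inhibitor of the carnitine transferases, was between 11.5 and 14.8 CPM by day and between 31.7 and 32.7 by night, and *crot*, a peroxisomal carnitine transferase, changed by -1.51 log2 units (SE 0.17). Of the 5 liver markers tested all had a log2 fold change below 0, and *fga*, a fibrinogen chain, was called higher by night (8.39 CPM by day, 15.3 by night, adjusted p = 0.0027). The part of liver or muscle RNA in these lists was not tested.

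Autophagy genes were partly on the night side. Of 57 genes of the lysosome and autophagy list 14 were called higher by night (24.6%, against 10.9% of all genes). By day 9 were called higher (15.8%, against 15.6% of all genes). The median was -0.07, with 28 log2 fold changes above 0 and 29 below, and the genes named below are of the night side. *ulk2*, a kinase that starts autophagy, on chromosome 18 at 31867701 to 31911400, was at 30.6 and 34.2 CPM at 2PM, 21 and 24 at 8PM, 83.1 and 91.1 at 2AM and 81.6 and 85.1 at 8AM (log2 fold change -1.58, SE 0.16, adjusted p = 0.000847). *WIPI1*, which acts in forming the autophagosome, was at 15.1 CPM by day and 42 by night (log2 fold change -1.42, SE 0.19), and *ATG2A*, a lipid carrier to it, at 51.9 and 115 (log2 fold change -1.10, SE 0.18). The lysosomal glucosidase *gaa* changed by -0.82 log2 units (SE 0.12).

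Part of the genes that build cilia were called higher by night. In a list of intraflagellar transport and cilium assembly, chosen after values were seen, 20 of 38 genes were called higher by night. These were 52.6%, against 10.9% of all genes. By day 0 were called, and the median was -0.49. Summed levels were 438 to 470 CPM by day and 571 to 646 by night. *ift88*, a subunit of the transport complex that moves towards the tip, on chromosome 7 at 6385428 to 6407599, was at 8.85 and 9.24 CPM at 2PM, 8.71 and 7.87 at 8PM, 18.4 and 19.1 at 2AM and 19.7 and 18.1 at 8AM (log2 fold change -1.07, SE 0.10, adjusted p = 0.000729). *ift81*, of the same complex, changed by -1.33 (SE 0.15) and *wdr35*, of the returning complex, by -0.97 (SE 0.12). Within a side *ift88*, *ift81* and *wdr35* were not called between clock times (adjusted p between 0.128 and 0.9). They were named for small p-values of the side contrast, which counts such differences as spread, so small differences within a side follow from that choice. Summed levels of neural (48.4 to 76.5 CPM) and of eye and pineal markers (138 to 185 CPM) overlapped between the sides. Of 13 eye and pineal markers 12 had a log2 fold change below 0 and *gnat2* and *asmt2* were called higher by night (adjusted p = 0.0259 and 0.0271), but not without 8PM B or with the description letter as a block. Of 9 neural markers the myelin genes *mbpb* and *plp1b* were called higher by night (1 gene without 8PM B), 4 of the 9 had a log2 fold change below 0, and no marker of either list was called higher by day. The part of such cells in the cilium list was not tested.

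Other genes with large changes towards the night side have no place in these lists. *fbxo25*, a subunit of a ubiquitin ligase, was at 6.3 and 8.24 CPM at 2PM, 2.9 and 4.74 at 8PM, 76.7 and 78.4 at 2AM and 28.1 and 25.6 at 8AM (log2 fold change -3.18, SE 0.46, adjusted p = 0.00213). *cipcb*, which in mammals inhibits Clock, was between 5.98 and 18.4 CPM by day and between 50.9 and 102 by night (log2 fold change -2.62, SE 0.42, adjusted p = 0.00295). *znf395b*, a zinc finger gene, changed by -2.16 (SE 0.20) and *cdk19*, a kinase of the mediator complex, by -2.42 (SE 0.41) at a low level, 0.332 CPM by day and 1.86 by night. On the day side *LONRF3* was at 29.4 and 30.5 CPM at 2PM, 26.5 and 24.6 at 8PM and 2.04 to 5.41 by night (log2 fold change 2.97, SE 0.29, adjusted p = 0.000799). It was not called between 2PM and 8PM (adjusted p = 0.136), but it was between 2AM and 8AM (adjusted p = 0.00505).

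Of 66 extracellular matrix genes 15 were called (22.7%, against 26.5% of all genes), 10 higher by night (15.2%) and 5 by day (7.58%). *col4a1* of the basement membrane (122 CPM by day, 189 by night) and the protease *mmp9* (98.4 and 175) were higher by night. *adamts12* was higher by day (99.1 and 34.6, log2 fold change 1.56, SE 0.22, adjusted p = 0.00202). Without 8PM B the counts of this list were 4 by night and 2 by day. Of 26 keratin and junction genes 4 were called higher by day (15.4%, against 15.6% of all genes). By night 1 was called higher (3.85%, and 0 genes without 8PM B). *tp63*, a regulator of epidermal stem cells, was at 263 ± 13.1 CPM by day and 203 ± 23.9 by night (SD, n = 4; log2 fold change 0.42, SE 0.11, adjusted p = 0.0181). That call was lost without 2AM A or 2AM B. Of 26 pigment cell genes 1 was called higher by night (3.85%, against 10.9% of all genes). By day 3 were called higher (11.5%, against 15.6% of all genes, and 1 gene without 8PM B). *bco1*, which cleaves carotenoids, was among them (15.5 CPM by day, 8.58 by night, adjusted p = 0.0433), but not with the replicate letter of the titles or descriptions as a block (adjusted p = 0.0613 and 0.0634). Its call was also lost without any of the 2AM, 2PM or 8PM libraries, and held under 7 of 15 alternatives. Of 31 immediate early genes 28 had a log2 fold change below 0 (median -0.66), but only *jun* was called (78.5 CPM by day, 145 by night, adjusted p = 0.0444), with overlapping sides, and not without 2AM A, 2AM B, 2PM A, 8PM A or 8PM B (adjusted p from 0.0912 to 0.113) or with the description letter as a block (adjusted p = 0.0701).

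**Figure D4:**
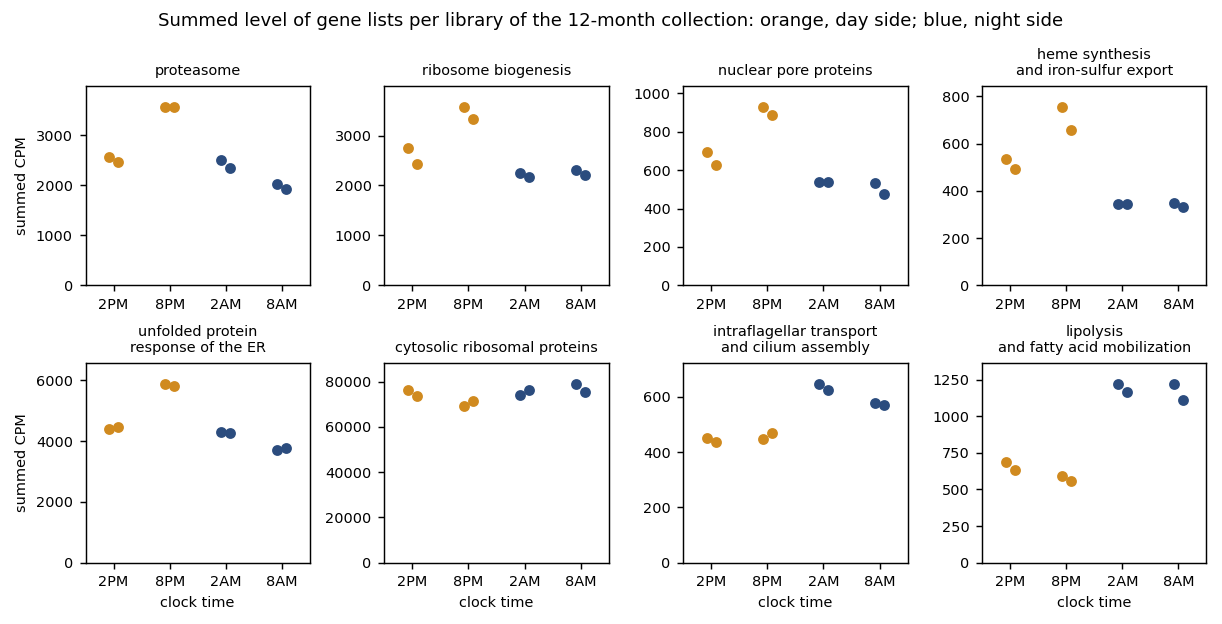
Summed CPM of 8 gene lists in each library of the 12-month collection by clock time, with orange points for the day side and blue points for the night side, each axis starting at 0. The proteasome, ribosome biogenesis, nuclear pore, heme and unfolded protein response lists are highest at 8PM, cytosolic ribosomal proteins range from 69200 to 78900 CPM over all libraries, and the last 2 lists are higher in every night library.

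The sides themselves were not uniform. Between 8PM and 2PM 2993 genes (16.4%) were called, 1497 higher and 1496 lower at 8PM, and between 8AM and 2AM 1114 (6.1%), 569 higher and 545 lower at 8AM. With the replicate letter of the titles as a block the latter count was 1754, and with the letter of the sample descriptions 640. These contrasts set 2 libraries against 2, with the spread taken over all 4 clock times, and the count of 8PM against 2PM was 747 without 8PM A and 844 without 2PM B. Of the 4848 genes called between the sides 1432 were also called between 2PM and 8PM. In 1416 of these the 8PM level lay further from the night side. Of the 4848 genes 252 were called between 2AM and 8AM, 146 of which were also called between 2PM and 8PM, and 3310 were called within neither side. The side contrast counts differences within a side as spread, so its calls lean towards genes without them. The 3310 therefore do not show that the sides are uniform. Another 2056 genes were called within a side and not between the sides.

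Teleosts carry gene pairs from the genome duplication in their ancestor (Ohnologs). Of 652 pairs with both members tested, both were called in 64 pairs, 1 in 230 and neither in 358. Of their 1304 members 358 were called (27.5%, against 26.5% of all genes). The 652 pairs are among 898 that could be read from the table of the study. Members lay on the same side in 48 of the 64 pairs and on opposite sides in 16. *mthfd1b*, a cytosolic folate enzyme, was 1.03 log2 units higher by day (SE 0.21, adjusted p = 0.00752), and its partner ENSXMAG00000009631 was higher by night (log2 fold change -0.83, SE 0.11, adjusted p = 0.0015). *abcc4*, a transporter, was higher by day (log2 fold change 0.95, SE 0.14) and its partner ENSXMAG00000002832 higher by night (-1.50, SE 0.18). The pair *slc6a16a* (-0.91, SE 0.19) and *slc6a16b* (0.59, SE 0.12) was split likewise. These 3 pairs are examples chosen after their values were seen.

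The same contrast in the 24-month collection called 99 of 18299 genes (0.541%), 37 higher by day and 62 by night, with 3575 genes at an unadjusted p under 0.05 and 1457 called by DESeq2. The biological coefficient of variation, a measure of the spread between libraries of a side, was 0.27 in the 24-month collection and 0.207 in the 12-month collection. With a mean per clock time it was 0.237 and 0.138. Of the 99 genes 63 were called in the 12-month collection in the same direction. Of the 4830 genes called in the 12-month collection and tested in the 24-month one, 4232 (87.6%) changed in the same direction there, against 72% of all 17876 genes tested in both. The median change of the genes higher by day was 0.63 log2 units in the 12-month collection and 0.29 in the 24-month collection, and that of the genes higher by night -0.62 and -0.35. Age, year and collection cannot be told apart, and the count of the 24-month collection was between 10 and 695 when 1 library was left out, the latter without 2AM C.

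Several clock genes had changes of like size in the 2 collections. The log2 fold change of *dbpb* was -4.63 in the 12-month collection and -4.59 in the 24-month collection, that of *per1b* -4.21 and -3.94 and that of *cry1ba* 3.29 and 2.77. Others did not, with *arntl2-Ohnolog1* at 2.50 and 1.25 (unadjusted p of the difference 1.94e-05, adjusted p = 0.123) and *clocka* at 3.84 and 2.51. *per2-Ohnolog2* was at 1.93 and -0.25 and *NOCT* at 1.62 and -0.64. The difference of the side effect between collections passed the adjusted threshold in 0 of 18935 genes (0%), with 1995 at an unadjusted p under 0.05 and 114 called by DESeq2. Without 2AM C of the 24-month collection edgeR called 220. The gene with the largest difference among those named was *per2-Ohnolog1*, which was at 33.1, 39.3, 19.8 and 20.2 CPM on the day side of the 24-month collection but at 118 and 48.7 at 8AM (log2 fold change -0.76 there, difference 4.66, unadjusted p = 0.000363, adjusted p = 0.229). *angptl4* was not called in the 24-month collection (log2 fold change 0.27, unadjusted p = 0.363), and the difference between collections was -1.79 (unadjusted p = 6.86e-05, adjusted p = 0.18). The thiolase *acaa2* was at -0.94 in the 12-month and 0.05 in the 24-month collection (unadjusted p of the difference 9.29e-06, adjusted p = 0.0881), and *cpt1ab* at -1.08 and -0.19. *psat1* was at 49, 31.9, 5.48 and 29.8 CPM on the day side of the 24-month collection and at 8.36, 42.5, 3.08 and 20.8 on the night side, with overlapping sides and a log2 fold change of 0.56.

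**Figure D5:**
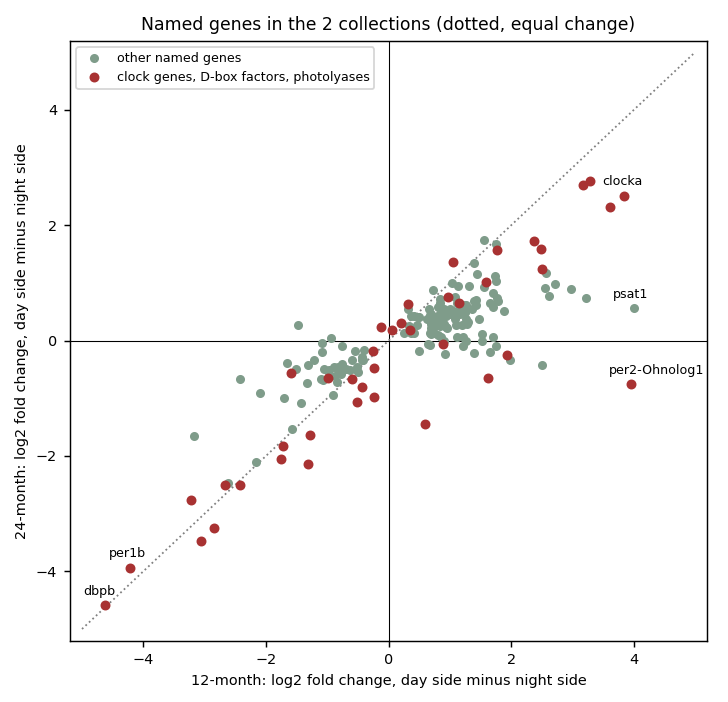
Log2 fold change of the named genes, day side minus night side, in the 12-month (horizontal) and 24-month (vertical) collection, with clock genes, D-box factors and photolyases in red, other named genes in green and a dotted line at equal change. *dbpb* and *per1b* lie near the line, while *psat1* and *per2-Ohnolog1* rose in the 12-month collection and were at 0.56 and -0.76 in the 24-month collection.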

How the data were processed

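RNA-Seq counts of skin were analysed as deposited. The authors trimmed and filtered the reads, mapped them with TopHat2 to *X. maculatus* genome version 5.0, counted them on Ensembl gene models with featureCounts and deposited the raw count of 24209 genes in 24 libraries, without normalization. No source used here gives the strand and multi-mapping options. Gene names came from the supplementary tables of the study, read from page images, and cover 11902 genes. A printed identifier was repaired by 1 leading zero in 1997 cases. Coordinates are those of the 6546 symbols found once in the RefSeq annotation of the same genome version.

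Libraries were grouped by the sample labels. Sides were compared with edgeR 4.0.16 (limma 3.58.1, R 4.3.3) by the quasi-likelihood test with TMM, filterByExpr and Benjamini-Hochberg adjustment at 0.05, without covariates. The SE is the log2 fold change over the root of F. CPM are counts over the library total. Alternatives were DESeq2 1.42.0, RLE size factors, total counts, no filter, a mean per clock time, the replicate letter as a block and each library left out. In simulated counts for the 12-month contrast with 18260 genes, the test recovered 52 of 100 genes changed by 0.5 log2 units and 83 of 100 changed by 1. The simulated clock times of a side did not differ, and the simulated spread came from the fit with a mean per clock time. These rates therefore do not describe the contrast in the data, where the clock times of a side differed. Tables were made with Python 3.11.15, numpy 2.4.6 and pandas 2.3.3.

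Each library is 1 fish. The side contrast pools 2 clock times a side without a time term. Its p-values thus measure the spread between fish together with the difference of the clock times within a side. The 2 libraries of a clock time differed beyond sampling noise (chi-square per degree of freedom 13.7 to 17.2 in the 12-month collection), so all were kept. Deviations of libraries with the same letter (A or B in the titles) correlated in the 12-month collection (r from 0.135 to 0.251 over 6 pairs of clock times), so the title letters were used as the replicate block there. In the 24-month collection r was -0.0207 to 0.315, and the letters were not taken to pair the libraries. The sample descriptions carry other letters (2AM A and 8PM B share the letter b, the other A libraries have a and the other B libraries c). By these, 7 pairs of libraries correlated from -0.135 to 0.251, and a block on them was added after the data were seen. The labels do not say what either letter stands for. Named genes were the tested clock genes, D-box factors and photolyases, the 12 largest rises and 12 largest falls among called genes with a symbol, a mean of at least 1 CPM and no overlap, and up to 4 called members with the smallest p for every other list, 194 in all. Members and lists were chosen with earlier results of these data known. No sequences were analysed.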

Additional observations from a re-analysis of the deposited data

Results flagged for a closer look

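Within a side, the highest or lowest of 4 libraries was tested for standing apart by Dixon's criterion in 388 groups of named-gene values, and 15 libraries passed. Chance gives about 1 in 20 groups. On the day side *nr1d2a* stood apart in 8PM B (114 CPM, others 67.7 to 72.5), *alg9* in 8PM B (14.3, others 12 to 12.3), *PSME4* in 8PM A (51.7, others 42.3 to 43.6), *pfkpa* in 2PM B (121, others 143 to 148), *SPATA5* in 2PM B (6.21, others 8.1 to 8.35), *tp63* in 2PM A (283, others 255 to 259) and *plp1b* in 2PM A (1.33, others 0.86 to 0.926). On the night side *tefb* stood apart in 8AM B (592, others 545 to 549), *ECH1* in 8AM A (58.4, others 51.1 to 51.4), *ATG2A* in 2AM B (127, others 110 to 112), *gnat2* in 2AM B (13.6, others 11 to 11.2) and *tram1* in 2AM A (35.3, others 31.7 to 32.3). In 8AM A 3 globin genes stood apart, *hbba2* (15.6, others 7.03 to 7.81) and 2 copies of *HBE1* (51.5, others 19.1 to 23.2, and 42.7, others 15.6 to 17.6). Reads may be shared between copies of such genes.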

How the results depend on the processing

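The 4848 calls between the sides of the 12-month collection became 7842 with a mean per clock time, and between 2927 (without 8PM B) and 5122 (without 2PM B) with 1 library left out. The replicate block of the title letters gave 4304 and that of the description letters, added after the data were seen, 3887. All 4848 were also called with a mean per clock time and 4843 by DESeq2, in the same direction. In the 24-month collection 99 calls became 1457 with DESeq2, 769 with a mean per clock time, 29 with the replicate block and 10 to 695 with 1 library left out. The difference between collections, 0 calls, became 114 with DESeq2, 240 with a mean per clock time and 0 to 220 with 1 library left out. Calls between 8PM and 2PM ranged from 747 to 3237 and those between 8AM and 2AM from 215 to 1286 with 1 library left out, and the latter were 1754 with the replicate block of the title letters and 640 with that of the description letters. Of 178 called named genes 155 were called under all 15 alternatives. Many were named for small p-values or large changes in the main fit of the same libraries, so this share does not describe the 4848 calls. The title letters as a block changed the calls of *nr1d2b* and *bco1* and of no other named gene. The description letters ended 7 calls and gave 1.

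Signs turned only in named genes that were not called. *arntl2-Ohnolog2* was at -0.19 with a mean per clock time, -0.09 with the replicate block of the description letters and between -0.30 and 0.32 with 1 library left out. *rora* ranged from -0.03 (without 2AM A) to 0.86, and *BHLHE40 (1 of many)*, ENSXMAG00000002248, from -0.73 to 0.23. The cause of these shifts was not tested. With 4 libraries a side, 3 counts correspond to 0.102 to 0.116 CPM, so depth limits only the lowest genes.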
